A study of Mus musculus with 12 samples.

Results

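The 47 genes described here encode proteins that build ribosomes in the nucleolus, together with the transcription factor Myc. They were chosen as rows of the deposited count table by gene name, from a list of 47 names. All 47 names had 1 row each in the table of 55335 genes, and all 47 passed the filter on low counts that left 15702 genes for testing. The lowest count of any of them in any library was 345 and the highest 53647.

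RNA was sequenced from CD8 T cells of OT-I mice, a T cell receptor transgenic line on C57BL/6, with spleen as the source. The 4 groups were Batf3 non-stimulated, control non-stimulated, Batf3 stimulated and control stimulated, with 3 libraries each. Batf3 cells carried a retroviral vector with Batf3, an AP-1 family transcription factor, and control cells the empty vector, so every group had been transduced and sorted for transduction. Non-stimulated cells spent 6 h with IL-15 at 100 ng/ml, and stimulated cells 6 h with plate-bound anti-CD3e and anti-CD28 at 1 µg/ml each. No label mentions IL-15 in the stimulated cultures, so the antibodies and the absence of labelled IL-15 cannot be told apart. Stimulation here means that whole change of culture. The 3 libraries of a group are technical replicates per the series' design text, so every SD, SE and p here measures technical spread and none covers differences between mice or transductions. In bulk RNA of this kind, fewer cells of one state and less RNA per cell cannot be told apart.

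Ribosome production starts with RNA polymerase I, which transcribes one long precursor of 3 of the 4 ribosomal RNAs. Small nucleolar ribonucleoproteins (snoRNPs) modify that precursor, the small subunit processome and a set of large subunit factors cut and fold it, and late factors finish the subunits on their way to the cytoplasm. MYC is a classical activator of many of these genes, and T cells switch on MYC and enlarge their nucleoli when the T cell receptor is engaged.

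Total counts per library lay between 14211564 and 14468231. Batf3 itself averaged 470.4 ± 3.68 CPM in Batf3 non-stimulated cells and 6.77 ± 0.83 CPM in control non-stimulated cells (SD, n = 3), and 427 ± 11.9 CPM in Batf3 stimulated cells and 18.4 ± 0.73 CPM in control stimulated cells. CPM here are counts relative to a library size scaled by TMM factors. The 8 CD8 T cell markers summed to 2737 to 2748 CPM in Batf3 non-stimulated and 2846 to 2896 CPM in control non-stimulated libraries, and to 1914 to 1949 CPM in Batf3 stimulated and 1684 to 1693 CPM in control stimulated libraries. Of these 8, 7 were higher and 0 lower in Batf3 stimulated cells, and 1 was higher and 4 lower in Batf3 non-stimulated cells, by the edgeR test described below. Among all tested genes, 14.8% were higher and 14.6% lower in Batf3 stimulated cells. In Batf3 non-stimulated cells these shares were 16.3% and 23.0%. Cd4 stayed at or below 0.67 CPM. Summed levels of several other marker lists also differed by vector without overlap. Summed, 8 myeloid markers gave 6.38 to 7.43 CPM in Batf3 non-stimulated and 3.19 to 3.45 CPM in control non-stimulated libraries, and 14.5 to 17.6 CPM in Batf3 stimulated and 7.54 to 11.1 CPM in control stimulated libraries, with Lyz2 and S100a8 at 0 throughout. The 6 dendritic cell markers summed to 31.9 to 34.1 against 24.6 to 26.1 CPM in the non-stimulated pair and to 60.0 to 64.0 against 35.8 to 41.1 CPM in the stimulated pair (Batf3 against control), with Siglech at 0 throughout. The 4 natural killer cell markers summed to 1.92 to 3.59 against 3.65 to 5.78 CPM and to 1.34 to 1.99 against 1.07 to 1.29 CPM in the same order of pairs, with Ncr1 and Klra8 at 0 throughout. The 7 B cell markers summed to 4.999 to 7.50 against 4.64 to 6.05 CPM and to 3.47 to 3.65 against 2.44 to 2.82 CPM, so that only the stimulated pair was separate. The 4 platelet markers gave 4.04 to 4.34 against 2.19 to 3.06 CPM and 1.63 to 3.61 against 1.37 to 1.68 CPM, separate in the non-stimulated pair, with Pf4 and Ppbp at 0 throughout. The 6 erythroid markers gave 1.41 to 3.72 against 0.862 to 1.66 CPM and 0.369 to 0.744 against 0 to 0.152 CPM, separate in the stimulated pair, with Hbb-bs at 0 throughout. Mitochondrial genes took 2.19 to 2.31% of counts in Batf3 non-stimulated and 1.89 to 2.03% in control non-stimulated libraries, and 1.64 to 1.96% in Batf3 stimulated and 1.96 to 2.03% in control stimulated libraries. The part of these values in the results was not tested.

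Promoter sequences were available for 42 of the 47 genes, as RefSeq windows of 250 bases before to 50 bases after the annotated start (build GRCm38.p6). Myc, Fbl, Rrp12, Npm1 and Bop1 had no window in that table. The palindrome CACGTG, the E-box bound by MYC with its partner MAX, occurred in 11 of the 42 genes (26.2%), against 1101 of 9533 tested protein-coding genes (11.5%) and 2187 of 27025 genes with a window (8.09%). The AP-1 palindrome TGANTCA, where N is any base, occurred in 0 of the 42 genes, against 6.12% of tested protein-coding genes and 8.97% of all genes with a window. Each motif reads the same on both strands, and with 0 matches of the AP-1 motif no overlap between them arose. Of the 12 E-box matches, 5 lay before the start and 7 after it. Those before the start are shown because they hold the motif of MYC, the transcription factor among the 47, in Nop2, Rrn3, Imp4 and Utp18, with CACGTG in capitals. The Nop2 and Rrn3 lines give the 250 bases before the start (chr6:125131633-125131882, + strand, and chr16:13780449-13780698, + strand), and the Imp4 and Utp18 lines give 20 bases on each side of the match (chr1:34439688-34439733, + strand, and chr11:93885761-93885806, - strand).
Nop2: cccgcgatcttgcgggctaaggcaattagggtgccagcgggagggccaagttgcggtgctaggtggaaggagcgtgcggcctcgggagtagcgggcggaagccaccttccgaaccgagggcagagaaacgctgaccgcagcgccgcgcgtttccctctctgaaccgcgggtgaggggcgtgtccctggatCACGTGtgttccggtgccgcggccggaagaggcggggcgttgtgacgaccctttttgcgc
Rrn3: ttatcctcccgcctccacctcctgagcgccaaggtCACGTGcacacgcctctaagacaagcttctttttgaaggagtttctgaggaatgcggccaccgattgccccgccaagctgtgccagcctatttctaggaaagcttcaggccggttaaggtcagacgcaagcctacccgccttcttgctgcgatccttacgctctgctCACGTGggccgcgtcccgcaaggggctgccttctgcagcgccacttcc
Imp4: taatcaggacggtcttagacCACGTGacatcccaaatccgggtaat
Utp18: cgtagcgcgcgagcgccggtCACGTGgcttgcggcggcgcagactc

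**Figure D1:**
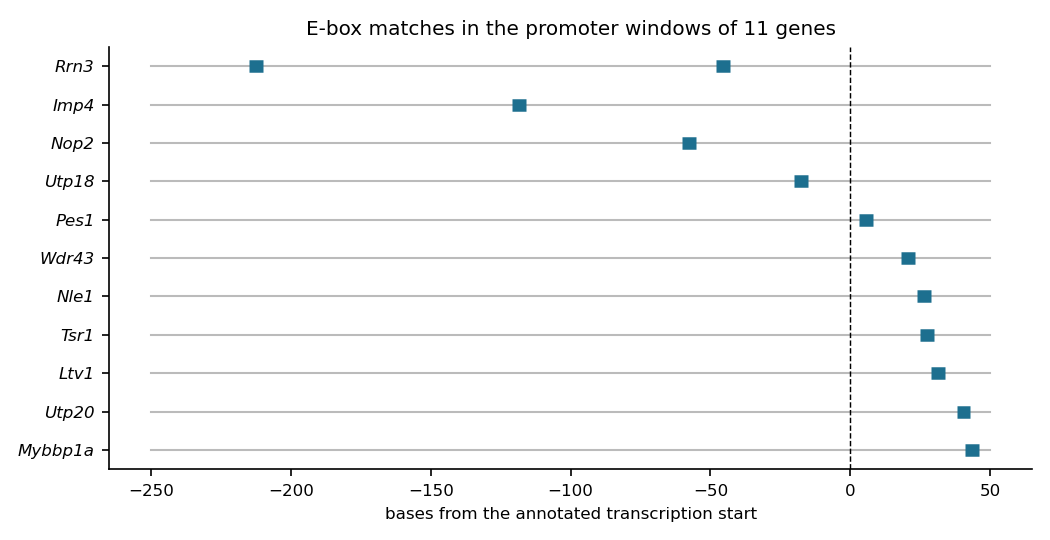
Positions of the 12 CACGTG matches (blocks) in the promoter windows (grey lines, 250 bases before to 50 after the annotated start) of the 11 genes that hold one; the x axis gives bases from the start, and the dashed line marks it. Rrn3 has a pair of matches, both before the start, and 7 genes have their match after it.

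A match is a string of letters and no evidence of binding, and none of the libraries measured binding. The 11 genes with a match had a median log2 change of -0.28 between Batf3 and control non-stimulated cells, and the 31 with a window and no match had a median of -0.35. On stimulation of control cells the medians were 1.64 with a match and 1.72 without. The members with a match included Nop2, which fell by 0.51 in Batf3 non-stimulated cells, and Utp20, which fell by 0.15.

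Some features of the genomic neighbourhood were also more frequent among the 47 than among tested protein-coding genes, though most members lacked each. In GENCODE M21 (GRCm38), 17 of the 47 genes (36.2%) had a protein-coding gene head to head within 1000 bases, against 2021 of 12029 tested protein-coding genes (16.8%). Examples are Mrto4 with Emc1 at 11 bases, Gnl3 with Pbrm1 at 14 bases, Ebna1bp2 with Cfap57 at 22 bases and Noc4l with Ddx51, itself a ribosome biogenesis helicase, at 34 bases. Of the 47, 8 carried small nucleolar RNA genes within their bounds on the same strand (17%), against 211 of 12029 (1.75%). Those 8 held 23 such genes: 5 in Nop56, 4 in Nop58, 3 each in Ncl, Wdr43 and Gnl3, 2 each in Tsr1 and Ppan and 1 in Dkc1. The members lay on 18 chromosomes. Of them, 19 shared exonic bases with a gene on the opposite strand, for which no share over tested protein-coding genes was computed. The strand setting of the counting is not given in the sources used here.

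Stimulation raised all 47 genes in both kinds of cells, by 2.19- to 8.38-fold in Batf3 cells and by 2.10- to 6.19-fold in control cells. Among all tested genes, 41.2% rose on stimulation in Batf3 cells and 39.6% in control cells. In none of the 47 did stimulated and non-stimulated libraries overlap, and 41.2% and 40.1% of all tested genes had all 3 stimulated libraries higher. The median log2 rise of the 47 was 2.05 in Batf3 cells and 1.72 in control cells, against 0.01 and -0.01 over all tested genes. In Batf3 cells 28 of the 47 rose at least 4-fold, and in control cells 9 did. The median in Batf3 cells lies just above the 4-fold mark, and below it without scaling factors. The count of 28 therefore depends on the scale, and the share of all tested genes at that mark was not counted. Summed over the 47 genes, the level was 22386 to 22886 CPM in Batf3 stimulated and 4952 to 5013 CPM in Batf3 non-stimulated libraries, and 23514 to 23884 CPM in control stimulated and 6575 to 6694 CPM in control non-stimulated libraries. Calls are those of edgeR's quasi-likelihood test at a Benjamini-Hochberg adjusted p under 0.05 over all tested genes. Without scaling factors the median rises were 1.84 and 1.53, and all 47 were still called.

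Myc (ENSMUSG00000022346, chr15:61985391-61990374, + strand, GRCm38) rose with them. Its level was 1196, 1181 and 1228 CPM in Batf3 stimulated libraries against 312, 290.4 and 284 CPM in Batf3 non-stimulated ones, and 1261, 1269 and 1277 CPM in control stimulated libraries against 405, 407 and 421 CPM in control non-stimulated ones. The stimulated and non-stimulated libraries were far apart with each vector, and the log2 rises were 2.02 ± 0.03 and 1.63 ± 0.03 (SE, edgeR quasi-likelihood adjusted p = 8.13e-58 and 4.73e-53). By size of the rise, Myc was 27th of 47 in Batf3 cells and 32nd of 47 in control cells.

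The largest rises were those of Ppan and Rrp9. Ppan, a large subunit factor, had 541, 521 and 539.6 CPM in Batf3 stimulated libraries against 65.9, 59.7 and 65.4 CPM in Batf3 non-stimulated ones and 571, 570.5 and 563 CPM in control stimulated libraries against 92.5, 93.2 and 89.8 CPM in control non-stimulated ones. Rrp9, the protein specific to the U3 snoRNP of the small subunit processome, had 294, 288 and 298 CPM in Batf3 stimulated libraries against 39.1, 34.0 and 38.7 CPM in Batf3 non-stimulated ones and 309.7, 323 and 323 CPM in control stimulated libraries against 50.2, 53.8 and 53.7 CPM in control non-stimulated ones. Log2 rises in Batf3 and control cells were 3.07 ± 0.04 and 2.63 ± 0.04 for Ppan and 2.98 ± 0.05 and 2.60 ± 0.05 for Rrp9. At the other end, Imp3, a partner of the U3 snoRNA, rose by 1.13 ± 0.05 and 1.07 ± 0.05.

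**Figure D2:**
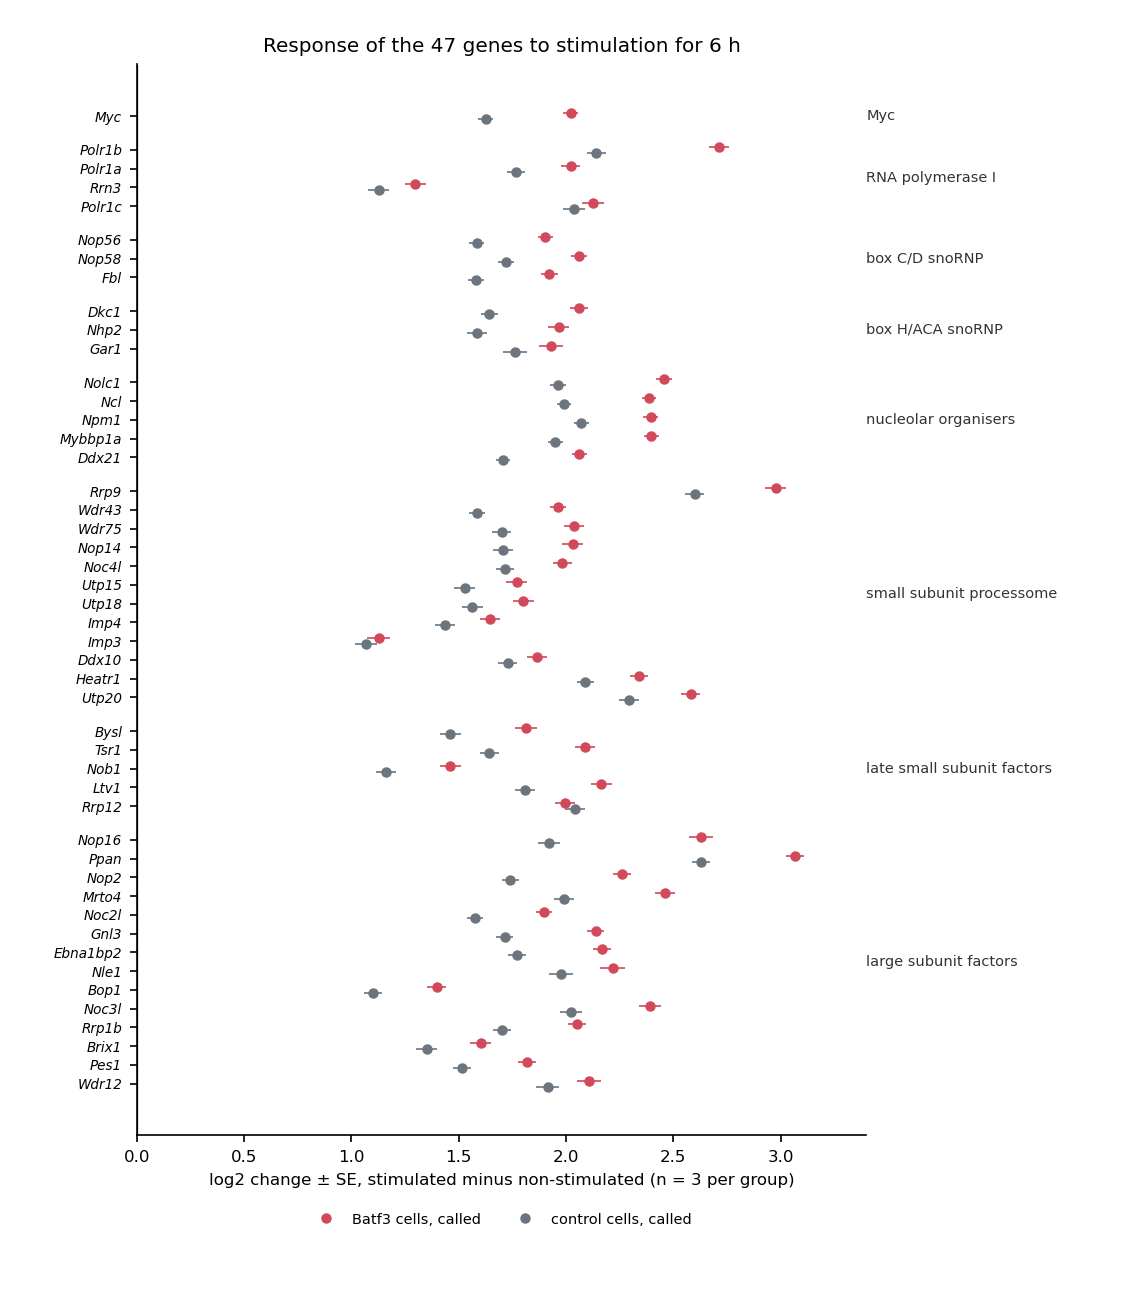
Log2 change on stimulation (x axis, ± SE, 3 libraries per group) of each of the 47 genes, grouped by role, in Batf3 cells (red) and control cells (grey). Every point lies at or above 1.07, and the red point lies to the right of the grey one for 46 of 47 genes, Rrp12 being the exception.

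By role, the 5 nucleolar organisers had median log2 rises of 2.39 in Batf3 cells and 1.96 in control cells, and the 14 large subunit factors 2.15 and 1.76. The 4 RNA polymerase I genes had medians of 2.07 and 1.90, spread between Polr1b, the second largest subunit, at 2.71 ± 0.05 and 2.14 ± 0.04, and Rrn3, the factor that brings the polymerase to its promoter, at 1.30 ± 0.05 and 1.13 ± 0.05. The box C/D genes stood at 1.92 and 1.58, the box H/ACA genes at 1.97 and 1.64, the 12 small subunit processome genes at 1.97 and 1.70 and the 5 late small subunit factors at 2.00 and 1.64.

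In non-stimulated cells the Batf3 vector went with lower levels of nearly the whole group. Of the 47 genes, 46 were lower in Batf3 cells and none higher; among all tested genes, 23.0% were called lower and 16.3% higher. Their median log2 change was -0.34, against -0.02 over all tested genes. Every change was below 2-fold in size, with values between -0.68 and 0.02. In 45 of the 47 the 3 Batf3 libraries all lay below the 3 control libraries, which held for 27.1% of all tested genes. Together the 47 took 0.545 to 0.550% of the counts in Batf3 non-stimulated libraries and 0.686 to 0.698% in control non-stimulated libraries. With library sizes alone as scale the median was -0.27 and 43 genes were called lower, Polr1c, Utp20 and Imp3 no longer passing. That scale shifted the split of all called genes to 60.1% higher, against 41.5% with TMM factors.

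Myc had 312, 290.4 and 284 CPM in Batf3 libraries, against 405, 407 and 421 CPM in control libraries without stimulation. The groups did not overlap, and the log2 change was -0.48 ± 0.04 (edgeR adjusted p = 1.87e-22), 11th lowest of 47. The largest fall was that of Nop16, a large subunit factor, with 26.9, 26.1 and 26.1 CPM in Batf3 libraries, against 41.4, 44.4 and 40.9 CPM in control libraries. Its log2 change was -0.68 ± 0.06 (edgeR adjusted p = 4.03e-16). The counterexample was Rrp12, which serves the export of both subunits, with 55.4, 51.3 and 53.3 CPM in Batf3 libraries, against 54.1, 54.1 and 49.0 CPM in control libraries. Its libraries overlapped, and the log2 change was 0.02 ± 0.05 (edgeR adjusted p = 0.723).

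**Figure D3:**
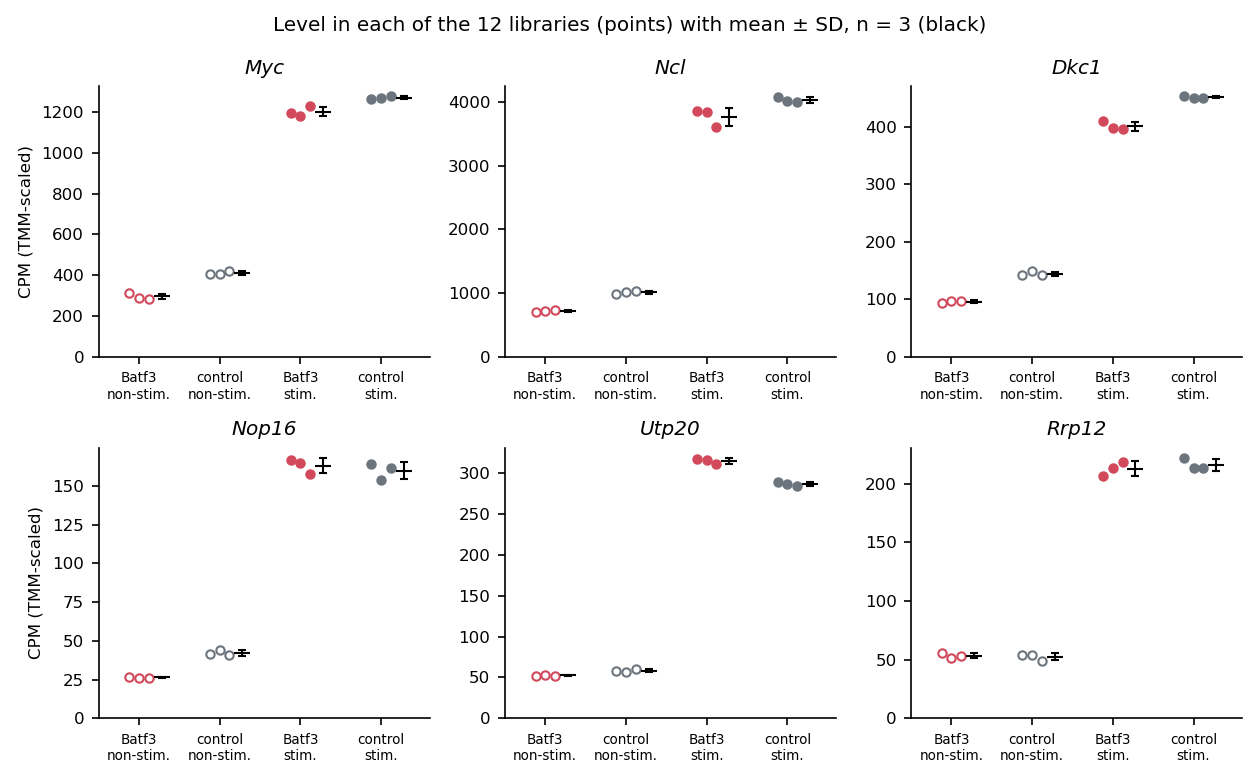
Level of 6 genes in each of the 12 libraries (y axis, CPM from 0; red, Batf3; grey, control; open, non-stimulated; filled, stimulated), with mean ± SD in black. Myc, Ncl, Dkc1 and Nop16 lie lower in Batf3 than in control non-stimulated cells, Utp20 is higher in Batf3 than in control stimulated cells, and the Rrp12 groups overlap in both cultures.

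All 4 RNA polymerase I genes were lower in Batf3 non-stimulated cells. Polr1b had 50.1, 48.4 and 44.3 CPM in Batf3 libraries, against 68.6, 73.1 and 69.8 CPM in control libraries, a log2 change of -0.57 ± 0.05. The largest catalytic subunit Polr1a changed by -0.22 ± 0.05 and Rrn3 by -0.21 ± 0.05. Polr1c, a subunit shared with RNA polymerase III, had 38.6, 32.3 and 35.4 CPM in Batf3 libraries, against 43.5, 39.9 and 38.4 CPM in control libraries. Its lowest control library lay below its highest Batf3 library, and the change of -0.20 ± 0.06 (edgeR adjusted p = 0.00595) was lost without Batf3 replicate 2 (-0.13, adjusted p = 0.0883) or control replicate 1 (-0.14, adjusted p = 0.0739).

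The genes for proteins of both snoRNP classes were lower as well. Nop56, a scaffold of the box C/D particles that guide ribose methylation, had 206, 220.1 and 211 CPM in Batf3 libraries, against 301, 304 and 302 CPM in control libraries. Its partner Nop58 changed by -0.41 ± 0.04 and the methyltransferase fibrillarin, Fbl, by -0.37 ± 0.04, beside -0.51 ± 0.04 for Nop56. Dkc1, the pseudouridine synthase of the box H/ACA particles, had 93.8, 97.0 and 97.4 CPM in Batf3 libraries, against 142, 149 and 142 CPM in control libraries. That is a log2 change of -0.59 ± 0.04, the second largest fall among the 47, and Nhp2 and Gar1, its partners in the particle, changed by -0.46 ± 0.05 and -0.33 ± 0.06. Per kilobase of transcript, the 3 box C/D genes had levels in Batf3 non-stimulated cells of 113 (Nop56), 85.4 (Nop58) and 98.7 (Fbl) CPM per kb, against 161, 114 and 127 CPM per kb in control non-stimulated cells. The box H/ACA genes were lower on the same scale, with 34.3 (Dkc1), 46.9 (Nhp2) and 21.3 (Gar1) CPM per kb in Batf3 and 51.5, 64.3 and 26.8 CPM per kb in control non-stimulated cells.

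Among the nucleolar organisers, Ncl (nucleolin), the most abundant member in CPM, had 705, 725 and 729 CPM in Batf3 libraries, against 989.9, 1017 and 1038 CPM in control libraries. Npm1 (nucleophosmin), the main protein of the outer nucleolar layer, had 579.7, 653 and 623 CPM in Batf3 libraries, against 875, 848 and 889 CPM in control libraries. Neither pair of groups overlapped. The log2 changes were -0.50 ± 0.04 for Nolc1, which accompanies snoRNPs, -0.50 ± 0.03 for Ncl, -0.49 ± 0.04 for Npm1 and -0.47 ± 0.04 for Mybbp1a, a nucleolar partner of MYB. The RNA helicase gene Ddx21 stood apart from these 4 with -0.27 ± 0.04.

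The 12 small subunit processome genes were all lower, with a median log2 change of -0.27. Rrp9 and Wdr43 changed most, by -0.50 ± 0.06 and -0.43 ± 0.04. Utp20 changed least, with 52.3, 53.1 and 52.4 CPM in Batf3 libraries, against 58.1, 56.9 and 60.6 CPM in control libraries and a log2 change of -0.15 ± 0.05 (edgeR adjusted p = 0.00244). Between them lay Wdr75 (-0.36 ± 0.05), Nop14 (-0.33 ± 0.05) and its partner Noc4l (-0.28 ± 0.05). The 6 others, Utp15, Utp18, Imp4, Imp3, Ddx10 and Heatr1, lay between -0.27 and -0.19. Of the late small subunit factors, Bysl changed by -0.35 ± 0.05, Tsr1 by -0.32 ± 0.05, Nob1, the nuclease that makes the end of 18S ribosomal RNA, by -0.29 ± 0.05 and Ltv1 by -0.27 ± 0.05. Bysl shares 361 exonic bases with Ccnd3 on the opposite strand. Over all libraries Ccnd3 had 23297 counts and Bysl 16697, and the part of that overlap was not tested.

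All 14 large subunit factors were lower, with a median log2 change of -0.37. After Nop16 came Ppan with -0.53 ± 0.05 and Nop2, an RNA methyltransferase with an E-box match 60 bases before its start, with 80.5, 80.2 and 81.9 CPM in Batf3 libraries, against 116, 119 and 110.3 CPM in control libraries and a log2 change of -0.51 ± 0.04. Mrto4 (-0.45 ± 0.05), Noc2l (-0.42 ± 0.04), Gnl3 or nucleostemin (-0.41 ± 0.04) and Ebna1bp2 (-0.38 ± 0.05) followed. The 3 genes of the PeBoW complex, which is needed to process the large subunit RNA, lay close together at -0.34 ± 0.05 (Bop1), -0.28 ± 0.05 (Pes1) and -0.27 ± 0.06 (Wdr12). The remaining Nle1, Noc3l, Rrp1b and Brix1 lay between -0.36 and -0.31.

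**Figure D4:**
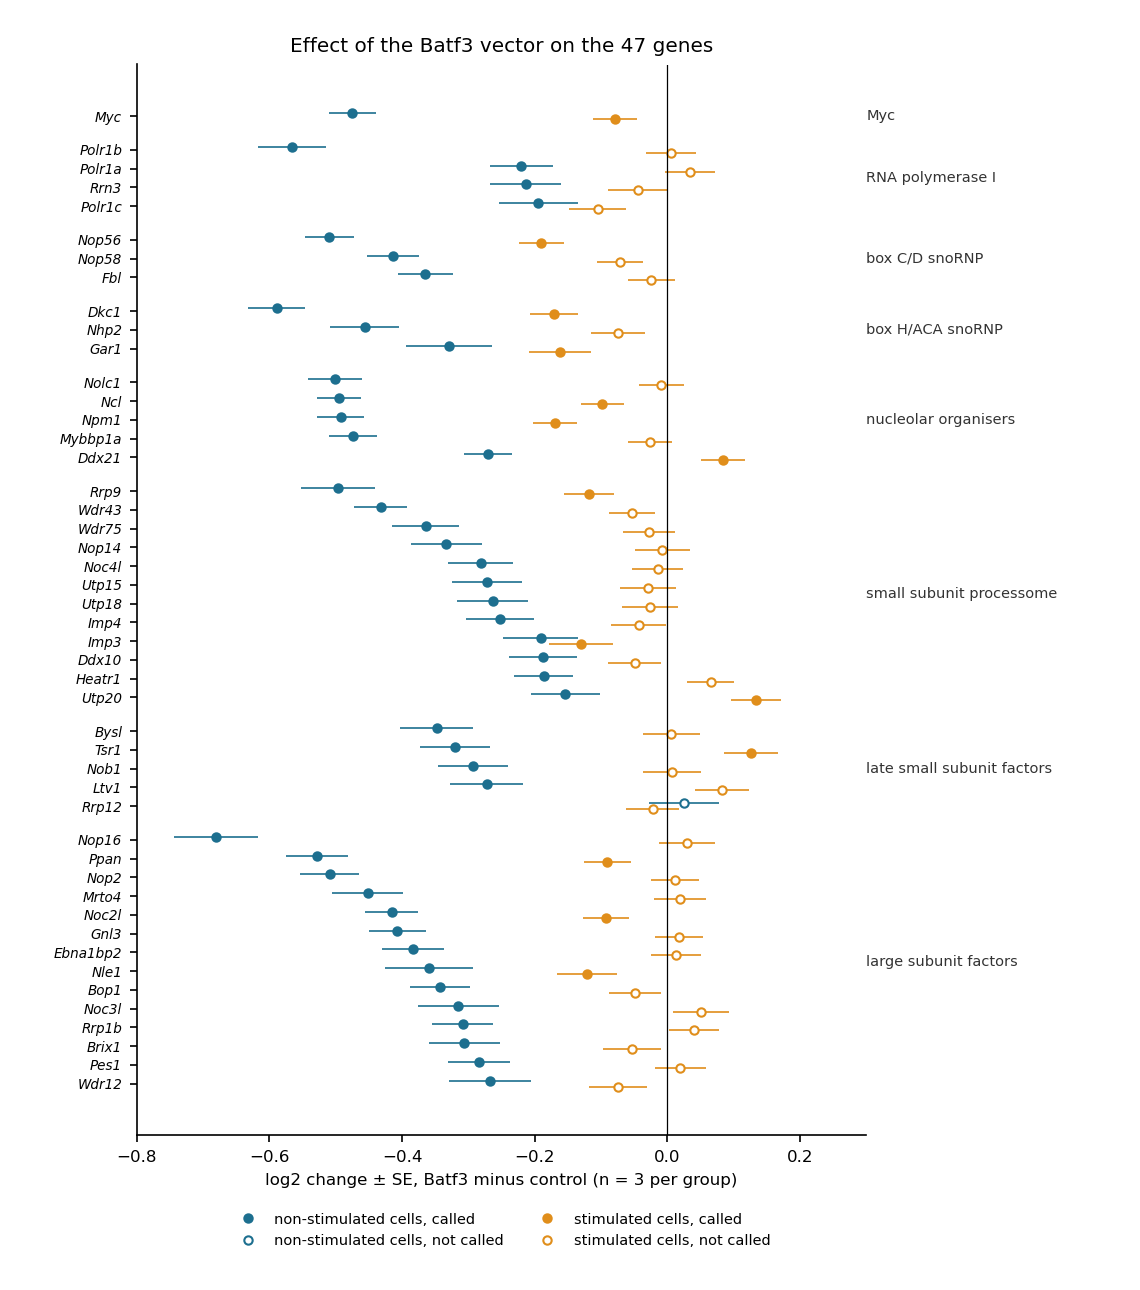
Log2 change between Batf3 and control cells (x axis, ± SE, 3 libraries per group) of each of the 47 genes by role, in non-stimulated (blue) and stimulated (orange) cells; filled points were called. The blue points lie at or below -0.15 for 46 genes, and the orange ones between -0.19 and 0.13; with library sizes alone as scale the orange median is 0.020, against -0.03 with TMM factors.

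After stimulation the vector effect on the group was small and mixed. Of the 47 genes, 11 were lower in Batf3 cells and 3 higher, against 14.6% lower and 14.8% higher among all tested genes, and 33 were not called. As shares of the 47 these are 23.4% lower and 6.38% higher. The median log2 change was -0.03, and 0.020 with library sizes alone, under which 4 genes were lower and 7 higher. That scale moved the median of all tested genes from 0.00 to 0.05 as well, and the group's median relative to it was -0.03 with either scale. For the 33 genes without a call the 95% intervals, from the t distribution with 8 residual degrees of freedom, lay within -0.20 and 0.18. In 28 of the 47 genes the libraries of the 2 groups overlapped; in 14 the Batf3 libraries all lay lower and in 5 all higher, each of which held for 19.9% of all tested genes.

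The 11 lower genes were Myc, Nop56, Dkc1, Gar1, Ncl, Npm1, Imp3, Rrp9, Noc2l, Ppan and Nle1. Myc had 1196, 1181 and 1228 CPM in Batf3 libraries, against 1261, 1269 and 1277 CPM in control libraries, which did not overlap. Its log2 change was -0.08 ± 0.03 (edgeR adjusted p = 0.0147), and -0.03 with library sizes alone (adjusted p = 0.391). The largest was that of Nop56, with 798, 792 and 795 CPM in Batf3 libraries, against 909, 905 and 908 CPM in control libraries and a log2 change of -0.19 ± 0.03. Dkc1 (-0.17 ± 0.04), Npm1 (-0.17 ± 0.03) and Gar1 (-0.16 ± 0.05) followed. These 4 were the lower ones that also passed with library sizes alone. Ncl changed by -0.10 ± 0.03, Imp3 by -0.13 ± 0.05, Nle1 by -0.12 ± 0.05, Rrp9 by -0.12 ± 0.04, Noc2l by -0.09 ± 0.03 and Ppan by -0.09 ± 0.03. The calls of Imp3, Nle1 and Ppan were lost when 1 library was left out: Imp3 without Batf3 replicate 1 or control replicate 3, Nle1 without Batf3 replicate 2 or control replicate 1 and Ppan without Batf3 replicate 2, with log2 values of -0.11 and -0.13, -0.10 and -0.10, and -0.08. Nle1 also missed the threshold with DESeq2 (adjusted p = 0.0516).

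The 3 higher genes were Utp20, Tsr1 and Ddx21. Utp20 had 317, 317 and 311 CPM in Batf3 libraries, against 289.7, 287 and 285 CPM in control libraries, and Tsr1, a late small subunit factor, had 217, 209 and 213 CPM in Batf3 libraries, against 199, 193 and 193 CPM in control libraries. The Batf3 libraries of both lay above the control libraries, with log2 changes of 0.13 ± 0.04 and 0.13 ± 0.04. Each of the 2 was lower in Batf3 than in control non-stimulated cells. Tsr1 shares 1240 exonic bases with Srr on the opposite strand. Over all libraries Srr had 1083 counts and Tsr1 21483, and the part of that overlap was not tested. Ddx21 changed by 0.08 ± 0.03, and its call was lost without Batf3 replicate 1 or 2 or control replicate 2 or 3 (values of 0.06 to 0.07). Without the low-count filter neither Ddx21 (adjusted p = 0.203) nor Tsr1 (0.0556) passed.

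Among the 33 genes without a call were all 4 RNA polymerase I genes, from -0.11 ± 0.04 for Polr1c to 0.03 ± 0.04 for Polr1a. Nop16, whose fall was the largest without stimulation, had 167, 165 and 158 CPM in Batf3 libraries, against 164, 154 and 162 CPM in control libraries. Those libraries overlapped, and the log2 change was 0.03 ± 0.04, with 0.01 ± 0.04 for Polr1b and 0.01 ± 0.04 for Nop2. Polr1c (edgeR adjusted p = 0.0519) and Nop58 (-0.07 ± 0.03, edgeR adjusted p = 0.0577) were nearest to the threshold, and leaving out 1 library brought Polr1c past it in 6 of 12 cases and Nop58 in 9 of 12. Leaving out 1 control stimulated library also brought Nhp2 (-0.11, without replicate 2) and Wdr43 (-0.08, without replicate 3) past it. Polr1c and Nop58 also passed as lower with RLE factors (edgeR adjusted p = 0.0267 and 0.0223). Without the low-count filter Polr1c (0.00603), Nop58 (0.0061), Nhp2 (0.0364) and Wdr43 (0.04) passed as lower. Polr1c did so too in the fit of 2 groups only (0.0358). Nhp2, Wdr12, Wdr43, Brix1, Ddx10, Bop1, Rrn3, Imp4, Utp15, Wdr75, Mybbp1a, Utp18, Fbl, Rrp12, Noc4l, Nolc1 and Nop14 lay between -0.07 and -0.01. Bysl, Nob1, Ebna1bp2, Gnl3, Pes1, Mrto4, Rrp1b, Noc3l, Heatr1 and Ltv1 lay between 0.01 and 0.08.

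The difference between the 2 vector effects, tested as an interaction, was positive and passed the test in 41 of the 47 genes and was negative in none that passed. Among all tested genes, 14.6% had a called positive and 6.08% a called negative interaction. The median was 0.34, against 0.05 over all tested genes. Myc had an interaction of 0.40 ± 0.05 (edgeR adjusted p = 4.60e-13), and the largest were those of Nop16 (0.71 ± 0.08), Polr1b (0.57 ± 0.06) and Nop2 (0.52 ± 0.06). No call was made for Polr1c (0.09 ± 0.07), Rrn3 (0.17 ± 0.07), Gar1 (0.17 ± 0.08), Imp3 (0.06 ± 0.07), Ddx10 (0.14 ± 0.06) and Rrp12 (-0.05 ± 0.07). A few of these calls depended on the setting. Wdr12 lost its call with library sizes alone (adjusted p = 0.0843), RLE factors (0.0549), DESeq2 (0.0938) and no low-count filter (0.246). Nle1 was lost with DESeq2 (adjusted p = 0.0554) and, without the filter (0.0952), together with Imp4 (0.0611). Leaving out 1 library changed others, given here with their log2 values. Imp4 (0.14) and Utp18 (0.18) lost theirs without control stimulated replicate 2, Wdr12 in 9 of 12 cases (0.14 to 0.19) and Nle1 in 4 of 12 (0.15 to 0.21). Rrn3 gained one without Batf3 non-stimulated replicate 3 (0.20) or control non-stimulated replicate 1 (0.22), and Ddx10 without Batf3 stimulated replicate 3 (0.19). This interaction is the same quantity as the difference between the stimulation responses of Batf3 and control cells, and it shares its libraries with both comparisons above.

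Other genes of the pathway were examined through lists. Over all tested genes, 23.0% were lower and 16.3% higher in Batf3 than in control non-stimulated cells. For stimulated cells these shares were 14.6% and 14.8%. Of 79 other ribosome biogenesis factors, 64 were lower and 1 higher in Batf3 than in control non-stimulated cells (median -0.26), and 15 were lower and 4 higher in stimulated cells (median -0.01). With library sizes alone the count in stimulated cells was 6 lower and 13 higher (median 0.03). The lower ones included Naf1, an assembly factor of box H/ACA particles (-0.72 ± 0.08), and Rsl24d1, a factor of large subunit assembly (-0.48 ± 0.05), and the higher one was Mdn1, the giant ATPase of large subunit maturation (0.15 ± 0.04). Of 16 genes for other RNA polymerase I and ribosomal DNA factors, 11 were lower and none higher in non-stimulated cells (7 lower and 1 higher with library sizes alone). Cd3eap, which encodes a polymerase subunit, changed most (-0.60 ± 0.08). That list also holds genes named for RNA polymerase II, among them Polr2f (-0.39 ± 0.07). Of 21 genes of RNA polymerase III and its factors, 5 were lower and 2 higher in non-stimulated cells (median -0.08). The lower share is close to that of all tested genes. Those called included the polymerase subunit gene Polr3d at -0.54 ± 0.07 and the TFIIIC subunit gene Gtf3c1 at 0.22 ± 0.05. Cytosolic ribosomal protein genes were lower in 76 of 83 and higher in 0, with a median of -0.23, and were lower in 64 and higher in 0 in stimulated cells, with a median of -0.11 (35 lower with library sizes alone). Mitochondrial ribosomal protein genes were lower in 38 of 77 and higher in 0 in non-stimulated cells (24 and 1 with library sizes alone), and of 11 genes of long RNAs that host small nucleolar RNAs 8 were lower and 1 higher (7 and 0 without the low-count filter).

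Of 11 MYC partners and rivals, 5 were higher and 2 lower in Batf3 non-stimulated cells. Over all tested genes, 16.3% were higher and 23.0% lower. Max, the obligate partner of MYC, changed by -0.45 ± 0.04, with 91.6 ± 2.60 CPM in Batf3 and 125 ± 1.60 CPM in control cells (SD, n = 3). Mxd4, a repressor that competes for Max, changed by 0.72 ± 0.08, with 33.8 ± 2.00 CPM in Batf3 and 20.5 ± 1.62 CPM in control cells. Mycl, a MYC paralogue at a low level, changed by 0.85 ± 0.23, and Mxd1, another competitor for Max, by -0.34 ± 0.05. In stimulated cells Max changed by -0.20 ± 0.05, the competitor Mxi1 by 0.48 ± 0.13 and Mga, a further Max partner, by 0.19 ± 0.04. Of 20 other classical MYC targets, 18 were lower and none higher without stimulation (median -0.39), led by the polyamine enzyme genes Srm (-0.79 ± 0.05) and Odc1 (-0.66 ± 0.04). In stimulated cells 10 of these 20 were lower and 2 higher, with a median of -0.08, and with library sizes alone 6 were lower and 4 higher. The shares over all tested genes there were 14.6% lower and 14.8% higher.

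**Figure D5:**
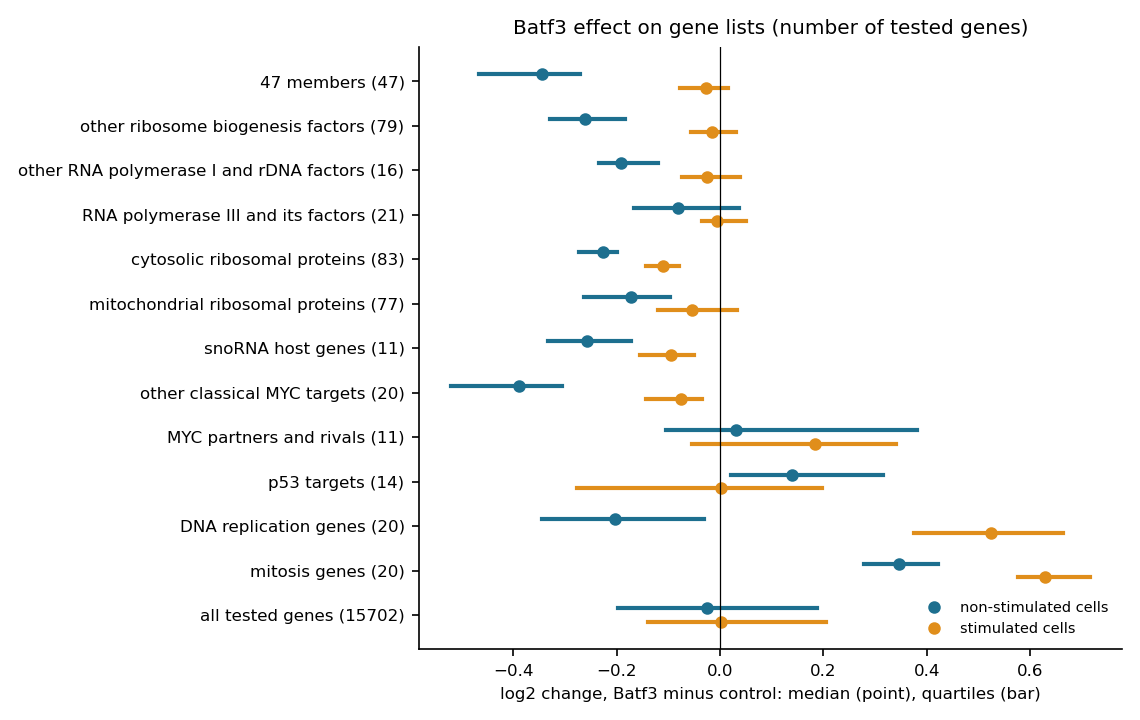
Median (point) and quartiles (bar) of the log2 change between Batf3 and control cells over the tested genes of each list, in non-stimulated (blue) and stimulated (orange) cells, with the number of tested genes in brackets. The 47 members have a median of -0.34 in non-stimulated cells and -0.03 in stimulated cells, and 0.020 in stimulated cells with library sizes alone; mitosis genes have medians of 0.35 and 0.63. With library sizes alone the stimulated-cell medians of the other biogenesis factors, the other RNA polymerase I and ribosomal DNA factors and the RNA polymerase III genes are 0.03, 0.02 and 0.04, against -0.01, -0.02 and -0.01 here.

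Near-identical pseudogenes touch 14 of the 47 genes (at least 90% identity over at least 200 bases). Their rows held counts equal to 53.6% of those of Nop56 over 6 pseudogenes, 33.9% of those of Npm1 over 10, 20.7% of those of Mrto4 and 7.75% of those of Pes1, and at most 2.11% for the other 10. How multiply aligned reads were counted is not given in the sources used here, so the levels of Nop56, Npm1, Mrto4 and Pes1 are uncertain. Adding the pseudogene counts to their genes changed no call, and the non-stimulated change of Nop56 was then -0.48.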

How the data were processed

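Deposited values are raw counts of reads for each gene (whole numbers), obtained by the authors with STAR 2.7, the GRCm38 build and featureCounts, per the submitters' processing notes; the libraries were poly(A)-selected and stranded, per the labels' protocols. The sources used here give no annotation release, strand setting or rule for multiply aligned reads. Each of the 12 columns matched 1 sample.

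Counts were filtered with filterByExpr (15702 of 55335 genes), scaled by TMM and tested in edgeR 4.0.16 (R 4.3.3) by quasi-likelihood, with 4 group means, 8 residual degrees of freedom, two-sided tests and Benjamini-Hochberg adjustment over all tested genes. Log2 changes are ± SE (n = 3 libraries per group), the SE never below counting error. CPM carry no pseudocount. The code was tested on simulated data. Alternatives were library sizes alone, RLE factors, DESeq2 1.42.0, no low-count filter, fits of 2 groups only, a replicate block, leaving out each library, and, added after counts were seen, pseudogene counts (blastn 2.17.0) added to their gene. Members, lists and tests were chosen with earlier results of these data known. Genes named from other lists are up to 2 called genes per direction with at least 1 CPM. Pairs of libraries in a group differed by more than sampling noise.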

Additional observations from a re-analysis of the deposited data

Results flagged for a closer look

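The effect of the Batf3 vector differed between the stimulated and the non-stimulated culture in 41 of the 47 genes, by edgeR's interaction test. The value given for each gene is its log2 change between Batf3 and control cells when stimulated minus that when non-stimulated. All 41 were positive, and 14.6% of all tested genes were called in that direction. The genes named below are, for each role, up to 2 called genes with the largest values. The 6 members without a call were Polr1c, Rrn3, Gar1, Imp3, Ddx10 and Rrp12. Myc had 0.40. Among the RNA polymerase I genes, Polr1b had 0.57 and Polr1a 0.25. The snoRNP genes Fbl and Nop58 had 0.34 each, Dkc1 had 0.42 and Nhp2 had 0.38. The nucleolar organiser genes Nolc1 and Mybbp1a had 0.49 and 0.45, and the small subunit processome genes Rrp9 and Wdr43 had 0.38 each. Of the late small subunit factors, Tsr1 had 0.45 and Ltv1 had 0.35. The large subunit factors Nop16 and Nop2 had 0.71 and 0.52.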

How the results depend on the processing

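All 47 genes rose on stimulation with both vectors under every alternative. In non-stimulated cells 43 to 46 genes were lower in Batf3 than in control cells and 0 higher. With library sizes alone as scale the group's median log2 change was -0.27 (non-stimulated), 0.020 (stimulated), 1.84 and 1.53 (stimulation in Batf3 and in control cells), and in stimulated cells 7 genes were higher and 4 lower. That scale moved the median of all tested genes to -0.20 and -0.19 in the stimulation contrasts; the members' median relative to it stayed at 2.04 and 1.72. It also moved the share of called genes that were higher in stimulated Batf3 cells to 65.6%, against 50.3% with TMM factors; for the interaction this share was 62.5%, against 70.6%. Without the low-count filter 1 gene was higher in stimulated cells, the median rise in Batf3 cells was 2.00 and the median interaction 0.29. Leaving out 1 library gave a median rise in Batf3 cells of 2.01 to 2.06, a median interaction of 0.29 to 0.34 with 37 to 42 genes called, and 10 to 13 lower genes in stimulated cells. Replicate numbers did not pair the libraries: 18 correlations of same-numbered deviations lay between -0.04 and 0.02, and the replicate block gave 46 lower genes in non-stimulated cells and 41 interactions. The cause of these shifts was not tested beyond the change of scale or of libraries itself. In stimulated cells, where the members' changes lay between -0.19 and 0.13, several calls turned on the scale, the filter or 1 library; the part of depth was not tested.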

Other observations

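Mitosis genes took another course than the ribosome genes, and DNA replication genes did so in part. All 20 mitosis genes were higher in Batf3 than in control cells in both cultures, with median log2 changes of 0.35 (non-stimulated) and 0.63 (stimulated), and all 20 fell on stimulation with both vectors. Mki67, the Ki-67 proliferation marker, had 772 ± 26.0 CPM in Batf3 and 454 ± 5.69 CPM in control non-stimulated cells (SD, n = 3), a log2 change of 0.76 ± 0.03 (SE). Of 20 DNA replication genes, 12 were lower and 2 higher in Batf3 non-stimulated cells, among them Mcm2, a subunit of the replicative helicase (-0.62 ± 0.04), and Rrm2, a subunit of ribonucleotide reductase (0.46 ± 0.04); with library sizes alone 9 were lower and 5 higher. The median of these 20 was -0.20 in non-stimulated cells, in the direction of the ribosome genes. All 20 were higher in Batf3 stimulated than in control stimulated cells, with a median of 0.52. On stimulation 19 of the 20 were lower in Batf3 cells and all 20 in control cells. Beside these falls and those of the mitosis genes, 6508 of all 15702 tested genes were lower on stimulation in Batf3 cells and 6384 in control cells. Of 14 tested p53 targets, 8 were higher and 0 lower in Batf3 non-stimulated cells, Plk2 changing most (0.62 ± 0.11), and 4 were higher and 5 lower in stimulated cells. Over all tested genes, 16.3% were higher and 23.0% lower in Batf3 non-stimulated cells. For stimulated cells these shares were 14.8% and 14.6%.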
